A study of Arabidopsis thaliana with 2 samples.

Results

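The class III peroxidases of *Arabidopsis thaliana* were examined in rosette leaves of NST1 over-expressors. NST1 is a transcription factor of the NAC family whose activity starts the building of secondary walls. Members were the loci of a list of 60 class III peroxidase genes for which a probe of the array was annotated with exactly 1 gene. Of the 60 loci, 45 had such a probe, 1 probe each, among 9253 genes on 9335 probes with 1 gene and 22575 probes in all. No filter on low values was applied, so all 45 were tested. The other 15 loci were not analysed here, among them PRXCA and PRXCB, peroxidases of the oxidative burst in defence, and PER64, a peroxidase of the root endodermis.

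The study set 2 independent T1 transformants, here plant 36 and plant 44 after their numbers in the labels, against wild type on 1 array of 2 colours each. All plants were 2 weeks old, received no treatment and grew with 16 h of light and 8 h of dark per day. In the transformants NST1 was driven by the 35S promoter, a viral promoter active in most plant cells, so that NST1 was not limited to the cells that normally make it. The labels record secondary walls outside their usual places in above-ground organs of such plants. The labels do not give how many wild-type plants supplied the control RNA. RNA of the over-expressor carried Cy5 and RNA of wild type Cy3 on both arrays.

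Class III peroxidases are secreted haem enzymes that use hydrogen peroxide to oxidise phenolic compounds in the cell wall. By forming radicals of monolignols they drive the polymerisation of lignin, the phenolic polymer that stiffens secondary walls, and by linking wall proteins and phenolics they can also stiffen growing walls. Others produce reactive oxygen in defence or act in root hairs and in the Casparian strip, the lignin barrier of the root endodermis. The plant genome holds many such genes, often as adjacent copies.

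Each value is a deposited log ratio of 1 probe on 1 array, read here as a log10 value that is positive where the over-expressor was likely higher. None of the sources used here gives the log base, how the ratios were centred or which way they run, and a fold holds only if the base is 10. NST1 had no named probe and so could not serve to check the direction. If the ratios run the other way, every sign, every rank and every rise or fall given here turns. The 2 arrays had medians of -0.002 and -0.004 over all probes. With no swap of the dyes, a dye effect and the genotype cannot be told apart. Ratios hold no level, so neither the abundance of a transcript nor the labelled tissue could be checked, and fewer cells of a type and less RNA per cell cannot be told apart in whole leaves. Of 77 genes with 2 named probes, 45 had both probes on the same side of 0, which is not far from an even split. This check therefore does not bear out the pairing of probes with gene names, and each gene name here rests on that pairing. Probe sequences were not used here, and binding of a probe to transcripts of close relatives was not tested.

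The peroxidases spread widely, with 1 gene among the highest of the array, a large group near 0 and some members below 0. Of the 45 members, 6 rose and 3 fell (limma, adjusted p under 0.05), or 13.3% and 6.67%, where 9.99% of all probes with 1 gene rose and 12.4% fell. The share of members that passed in either direction, 20%, was close to the 22.4% of all probes with 1 gene. The larger values lay on the high side. At or beyond 2-fold higher on both arrays were 6 members, or 13.3%, against 2.71% of all probes with 1 gene, and 0 members were at or beyond 2-fold lower, against 2.44%. The 6 became 12 on the array of plant 44 alone, and 1 member (PRX52), against 0.0643% of all probes with 1 gene, if the values are log2. At 1.5-fold or more, 12 members lay higher on both arrays (26.7%, against 7.5%) and 3 lay lower (6.67%, against 8.54%). The median of the 45 means was 0.042, against 0.001 over all probes with 1 gene, and the SD among members was 0.30 against 0.17. Above 0 on both arrays were 27 members (60%, against 42.2%), and below 0 on both were 9 (20%, against 41%). These counts describe the list, and no test of the list as a whole was made.

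**Figure D1:**
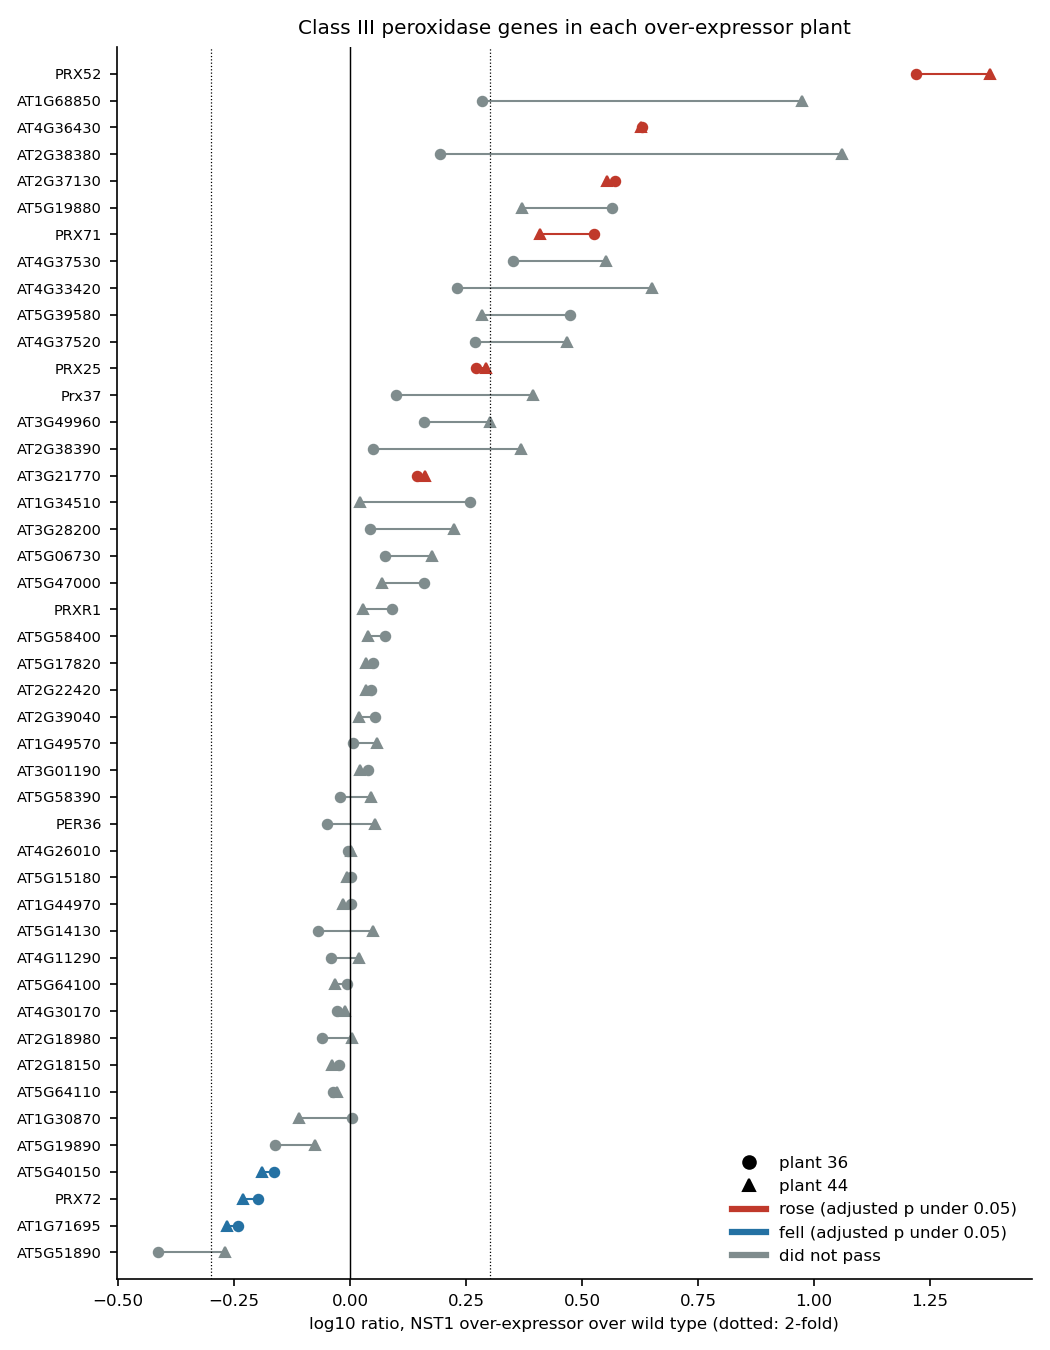
Log10 ratio of over-expressor over wild type for each of the 45 class III peroxidase genes, with a circle for plant 36, a triangle for plant 44 and colour for the limma call; dotted lines mark 2-fold if the base is 10. PRX52 stands alone at the top with values of 1.22 and 1.38. The genes within 0.1 of 0 on both arrays lie together, above the members with the lowest means at the bottom.

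**Figure D2:**
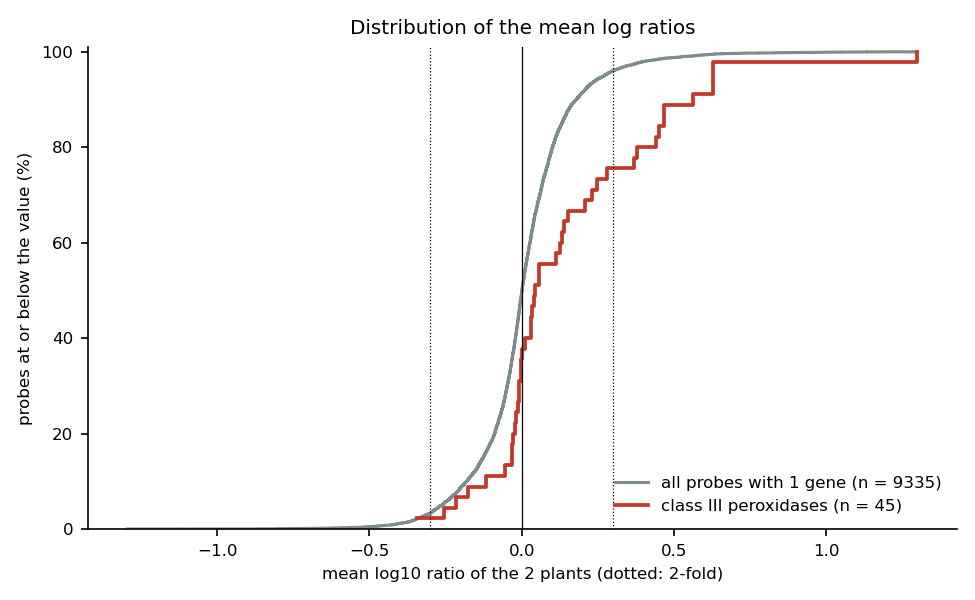
Cumulative percentage of probes against the mean log10 ratio of the 2 plants, for the 45 class III peroxidases (red) and for all 9335 probes with 1 gene (grey); dotted lines mark 2-fold if the base is 10. Above 0 the red curve lies to the right of the grey curve, up to PRX52 at 1.3, which ends both.

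Peroxidases linked to lignin made up a list of 10 genes, of which 7 were measured. They did not all move one way: 3 rose, 1 fell, and the remaining 3 missed the threshold, where 9.99% of all probes with 1 gene rose and 12.4% fell. The median of the 7 was 0.28.

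PRX52 (AT5G05340), which has been linked to lignin of stem fibres, lay at 1.22 in plant 36 and 1.38 in plant 44. Both values were above those of every other member on the same array. Its mean of 1.3 ± 0.11 (SD, n = 2 plants) is 19.9-fold if the base is 10, with adjusted p = 0.0233 (limma). By its mean PRX52 ranked 1 from the top among the 9335 probes with 1 gene, and it would be the lowest if the ratios run the other way.

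PRX71 (AT5G64120), linked to lignin and to the restraint of cell growth, lay at 0.53 in plant 36 and 0.41 in plant 44. It rose to 0.47 ± 0.08 (SD, n = 2), or 2.93-fold, with adjusted p = 0.0349. PRX25 (AT2G41480), linked to stem lignin, held nearly the same value in both plants, 0.27 and 0.29. It rose to 0.28 ± 0.015, or 1.91-fold, with adjusted p = 0.0273.

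PRX72 (AT5G66390), which has likewise been linked to stem lignin, lay on the other side of 0 in both plants, at -0.20 and -0.23. It fell to -0.21 ± 0.023 (SD, n = 2), which is 1.64-fold lower if the base is 10, with adjusted p = 0.0329. That PRX72 lay apart from PRX52, PRX71 and PRX25 follows from their calls, which go by the sign of the mean, and adds nothing to them.

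The other 3 measured members of the lignin list did not pass. AT4G33420, linked to vessel lignin, lay at 0.23 in plant 36 and 0.65 in plant 44, with a mean of 0.44 ± 0.30 and adjusted p = 0.139. AT5G51890, also linked to vessel lignin, had the lowest mean of the 45 members, with -0.41 in plant 36 and -0.27 in plant 44, and narrowly missed the threshold (-0.34 ± 0.10, adjusted p = 0.0531). These vessel-linked peroxidases thus lay on opposite sides of 0 in both plants. AT2G22420, a peroxidase of lignified tissue, lay near 0, at 0.045 and 0.033 (adjusted p = 0.17).

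Outside the lignin list, 3 further members rose. AT4G36430 had the most even pair of values among the changed members, 0.628 and 0.627. This amounts to 4.24-fold if the base is 10 (adjusted p = 0.0168), and its mean ranked 50 among all probes with 1 gene, from the top in the likely direction of the ratio. AT2G37130 lay at 0.57 in plant 36 and 0.55 in plant 44. Its mean of 0.56 ± 0.012 (SD, n = 2) is 3.65-fold, with adjusted p = 0.0171. AT3G21770 rose by a smaller amount, with 0.14 and 0.16, or 1.42-fold (adjusted p = 0.0374). For all 3 genes the plants differed by less than 0.02, far less than the distance of either plant from 0. The test favours such pairs, so their closeness is no support beyond the calls.

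Besides PRX72, AT1G71695 and AT5G40150 fell. AT1G71695 lay at -0.24 in plant 36 and -0.27 in plant 44, with a mean of -0.25 ± 0.016 (adjusted p = 0.0286). AT5G40150 lay at -0.16 and -0.19, with a mean of -0.18 ± 0.019 (adjusted p = 0.0358). All 3 genes that fell lay between -0.27 and -0.16 on both arrays, a narrower range than that of the 6 that rose, whose means ran from 0.15 to 1.3.

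How closely the plants matched bore on which members passed. Of the 6 members at or beyond 2-fold higher on both arrays, 4 passed the test (PRX52, AT4G36430, AT2G37130 and PRX71), or 8.89% of members, against 2.31% of all probes with 1 gene for both criteria together. The other 2, AT5G19880 and AT4G37530, had larger distances between the plants. AT5G19880 lay at 0.56 in plant 36 and 0.37 in plant 44 (0.47 ± 0.14, adjusted p = 0.052), and its mean was as high as that of PRX71, which passed. AT4G37530 lay at 0.35 and 0.55 (0.45 ± 0.14, adjusted p = 0.0557). The 2 members just inside the threshold were AT5G40150 and AT3G21770, and the 2 just outside were AT5G19880 and AT5G51890. With each array centred on its median, 10 members rose and 4 fell, since AT5G19880, AT4G37530, AT4G37520, AT5G39580 and AT5G51890 then passed with the 9 others. Centring raised the calls of the whole array too, to 15.3% of all probes with 1 gene that rose and 15.4% that fell. At an adjusted p of 0.01, limma called 0 members and 0% of all probes with 1 gene. In the main fit 16 members were at an unadjusted p under 0.05 (35.6%, against 46.9% of all probes with 1 gene).

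The 2 plants differed most in 4 members, all higher in plant 44 by 2-fold or more (8.89% of members, against 0.953% of all probes with 1 gene). These differences rest on 1 array per plant and were not tested. AT2G38380 lay at 0.19 in plant 36 and 1.06 in plant 44, a difference of 0.87, or 7.36-fold if the base is 10. This difference ranked 6 among the 9335 probes with 1 gene, as plant 44 over plant 36 in the likely direction of the ratio. AT1G68850 lay at 0.28 and 0.97, a difference of 0.69, or 4.91-fold, which ranked 13. AT4G33420, described above, differed by 0.42, and AT2G38390 lay at 0.049 and 0.37. All 4 lay above 0 in both plants, and none passed the test of the mean.

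AT2G38380 and AT1G68850 each had means of 0.63, as high as that of AT4G36430, but with an SD of 0.61 and 0.49 against 0.000707. Their adjusted p was 0.223 and 0.167. In plant 44 alone, 12 members lay at or beyond 2-fold higher (26.7%, against 4.46% of all probes with 1 gene), and in plant 36 alone 7 did (15.6%, against 3.93%). Prx37 (AT4G08770), linked to growth and to phenolics of the wall, was among those of plant 44, at 0.098 in plant 36 and 0.39 in plant 44.

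In the other direction, 0 members lay 2-fold or more higher in plant 36 than in plant 44, against 0.214% of all probes with 1 gene. The largest such difference was in AT1G34510, at 0.26 in plant 36 and 0.021 in plant 44. AT5G19880 followed, and then AT5G39580, a peroxidase linked to root hair growth, at 0.47 and 0.28 (adjusted p = 0.0638). Both stayed well above 0 in each plant, whereas AT1G34510 was near 0 in plant 44.

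**Figure D3:**
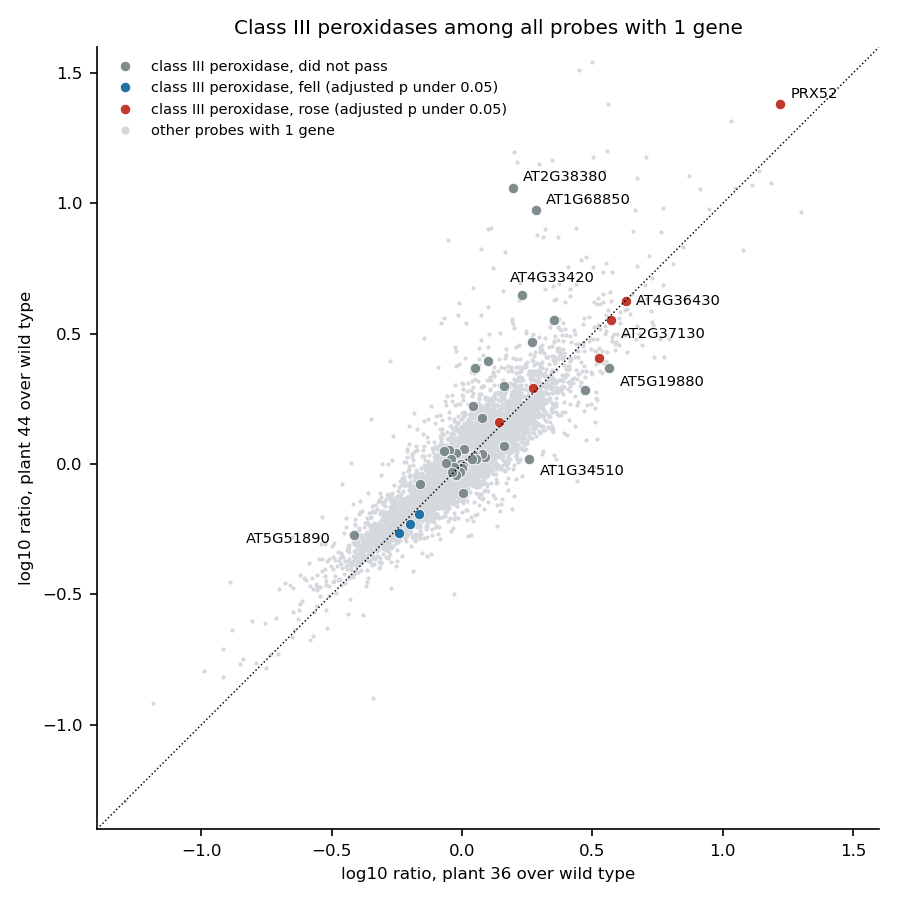
Log10 ratio in plant 44 against that in plant 36 for all probes with 1 gene (small grey points) and for the 45 class III peroxidases (large points, coloured by the limma call); the dotted line marks equal values. AT2G38380, AT1G68850 and AT4G33420 lie above the line, higher in plant 44, and the changed members lie close to it.

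Adjacent copies did not always share their values. Listed loci that follow each other with no other protein-coding gene between them formed 10 runs with 22 loci, by gene order in RefSeq's TAIR10.1 annotation. In 5 runs 2 or more members were measured, 11 members in all. The run of 3 on chromosome 5 showed the clearest contrast. PRX71 rose, while its neighbours AT5G64100 (-0.007 and -0.032) and AT5G64110 (-0.037 and -0.029) lay near 0 in both plants. PRX71 exceeded AT5G64110 by 0.56 in plant 36 and by 0.44 in plant 44.

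AT5G19880 and AT5G19890 lay on opposite sides of 0 in both plants, the former as given above and the latter at -0.16 and -0.075 (adjusted p = 0.114). They differed by 0.73 in plant 36 and by 0.45 in plant 44. In contrast, AT4G37520 and AT4G37530 ran in parallel. AT4G37520 lay at 0.27 in plant 36 and 0.47 in plant 44 (adjusted p = 0.0688), below AT4G37530 by 0.081 and 0.084. AT2G38380 and AT2G38390 were both higher in plant 44, by different amounts. AT5G58390 (-0.022 and 0.044) and AT5G58400 (0.076 and 0.039) lay near 0. No test of differences between neighbours was made.

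**Figure D4:**
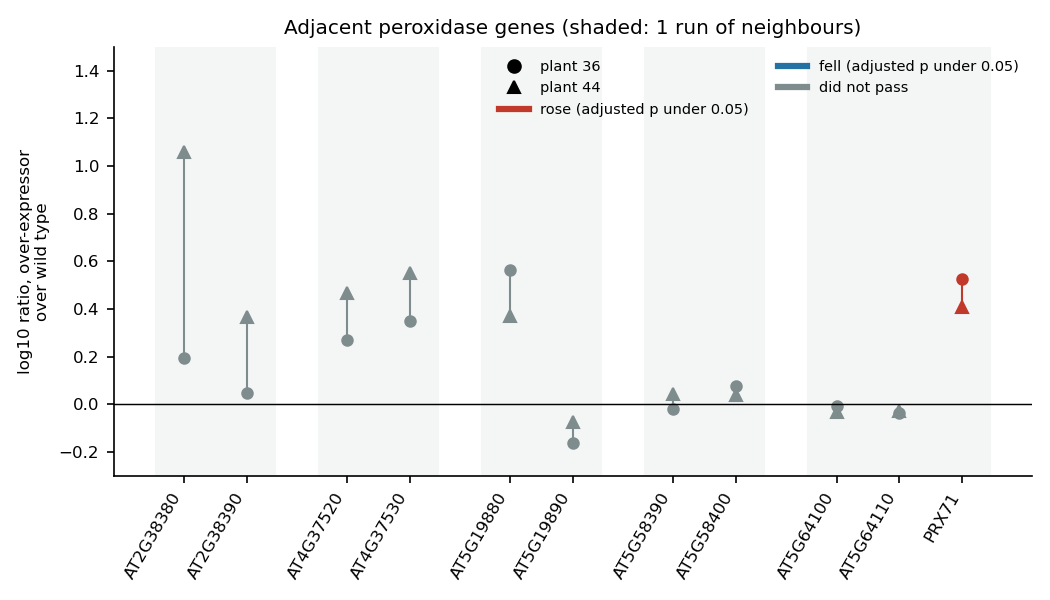
Log10 ratio of over-expressor over wild type for the 11 measured peroxidase genes in 5 runs of adjacent loci (shaded), with a circle for plant 36, a triangle for plant 44 and colour for the limma call. PRX71 lies above both of its neighbours, AT5G19880 above AT5G19890, and AT4G37520 and AT4G37530 have nearly the same pattern.

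A large group of peroxidases had ratios near 0. Within 0.1 of 0 on both arrays lay 19 members (42.2%, against 51.8% of all probes with 1 gene). Their means ran from -0.033 to 0.058. This group held PER36 (AT3G50990), linked to the release of seed coat mucilage, at -0.050 and 0.054, PRXR1 (AT4G21960) at 0.089 and 0.028, and AT4G26010, linked to root hairs, at -0.005 and 0.001. A ratio near 0 does not tell whether the gene was active in leaves, since signal over background is unknown here.

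Peroxidases with known roles in roots were gathered in a pair of lists, for the Casparian strip and for root hairs. Of 5 listed peroxidases of the Casparian strip, 3 were measured, of which PRX72 fell and 2 did not pass, AT1G44970 at -0.0075 ± 0.012 and AT4G11290 at -0.012 ± 0.042. Of 7 listed root hair peroxidases, 4 were measured and 0 passed (limma; 1 at an unadjusted p under 0.05). Their means ran from -0.054 to 0.38, with AT5G39580 as the highest and AT1G30870 as the lowest. Of 5 measured root markers among 8 listed, 0 passed (2 at an unadjusted p under 0.05), and their means ran from -0.078 to -0.016. The part of root transcripts in the leaf values was not tested. Of 6 listed peroxidases of the oxidative burst and defence, 2 were measured, PRX71, which rose, and AT5G39580, which did not pass. Over all probes with 1 gene, 22.4% passed in either direction (limma) and 46.9% were at an unadjusted p under 0.05. Lists this short can hold 0 calls at such shares, so these counts do not set the lists apart from the array.

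Genes that act beside the peroxidases were measured sparsely. Of 79 listed genes of lignin precursors, other lignin-forming oxidases, reactive oxygen and secondary wall regulation, 9 had a named probe. Among these, 1 rose and 1 fell, and the other 7 missed the threshold. Their background is that of all probes with 1 gene, of which 9.99% rose and 12.4% fell.

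Among the RBOH NADPH oxidases, which make the superoxide from which hydrogen peroxide forms, 3 of 10 were measured. AT1G19230 lay at 0.52 in plant 36 and 0.64 in plant 44 and rose to 0.58 ± 0.083, or 3.79-fold if the base is 10 (adjusted p = 0.0305). The other 2, AT4G25090 at 0.01 ± 0.042 and AT4G11230 at -0.045 ± 0.013, did not pass. Among ascorbate peroxidases and catalases, which remove hydrogen peroxide inside the cell, 2 of 11 were measured. The thylakoid enzyme TAPX (AT1G77490) lay at -0.19 and -0.17 and fell to -0.18 ± 0.017 (adjusted p = 0.035). The stromal enzyme SAPX (AT4G08390) lay at -0.051 ± 0.045 and did not pass.

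Of 18 monolignol synthesis genes 2 were measured, HCT at 0.094 ± 0.073 and CCR2 at 0.021 ± 0.0014, and neither passed. Of 17 laccases, oxidases that polymerise lignin without hydrogen peroxide, AT5G01050 was the single one measured, at 0.00 and -0.042 (adjusted p = 0.469). Of 8 superoxide dismutases, AT3G56350 was the single one measured, at -0.067 and -0.004 (adjusted p = 0.362). The 15 listed regulators and cellulose synthases of the secondary wall had 0 named probes and were not analysed here. PRX52 lay above all 9 measured genes that act beside the peroxidases on both arrays. Its rank of 1 by the mean among all probes with 1 gene made this likely beforehand, so it does not compare the groups of genes.

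**Figure D5:**
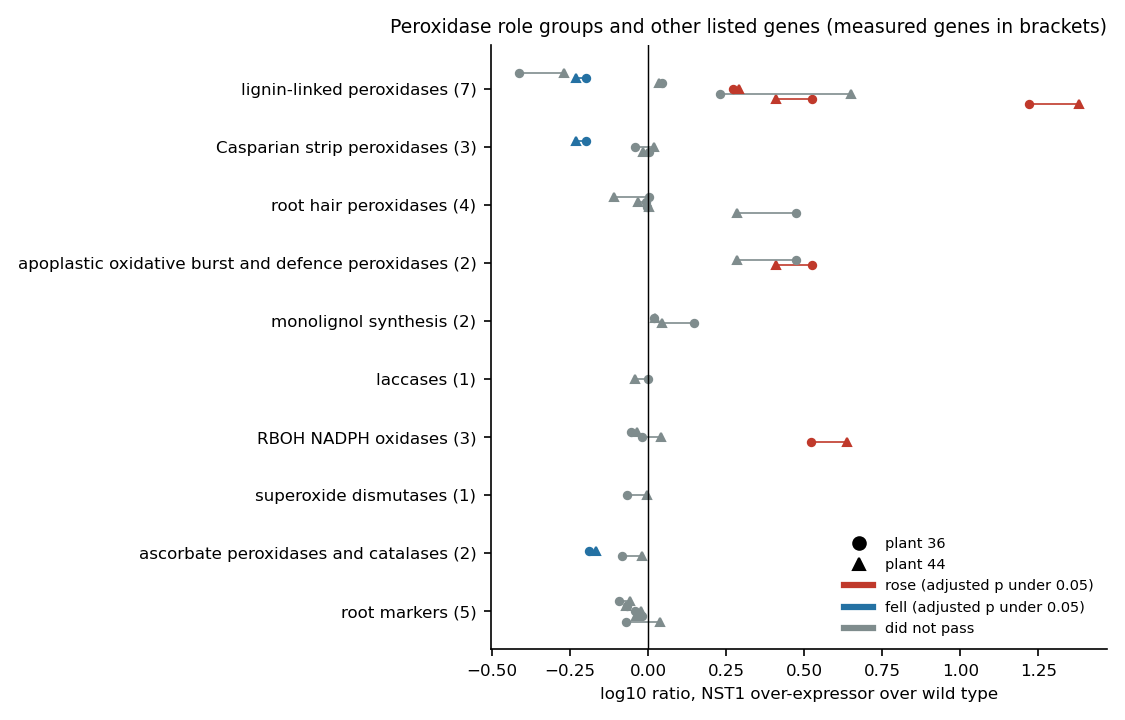
Log10 ratio of over-expressor over wild type for the measured genes of each list, each gene drawn as a circle for plant 36 joined to a triangle for plant 44 and coloured by the limma call; genes in 2 lists appear in both. The lignin-linked peroxidases extend from AT5G51890 at -0.34 to PRX52 at 1.3, and the RBOH gene AT1G19230 stands apart from the other 2 of its list.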

How the data were processed

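The deposited series table held 1 log10 ratio per probe and array, for 22575 probes and 2 arrays of 2 colours, with Cy5 and Cy3 per the labels. The sources used here do not say how the authors made them. They were read as log10 because they lie within -2 and 2, which does not settle the base. Probes were named through the platform annotation and RefSeq's gene table (9317 of 9335 probes with 1 gene matched). An intercept was fitted to every probe in limma 3.58.1 under R 4.3.3 and tested against 0, two-sided, with empirical Bayes moderation (residual degrees of freedom 1, prior 1.37), and p-values were adjusted by Benjamini-Hochberg over all 22575 probes at 0.05. Only probes past it are said to have risen or fallen. The p-values hold the spread between the 2 arrays, moderated by that of all probes. That spread joins the difference between the plants with that between the measurements. Whether it holds any spread of wild type is not known, since the wild-type plants behind each array are not described. The number of arrays limits the precision. Named members were those past the threshold, the 2 on each side of it, the measured lignin-linked members and the 3 with the largest difference between plants each way; of other lists, up to 3 genes with the largest absolute mean were named. Members named beside these (neighbours, Prx37, PER36, PRXR1, AT4G26010) were chosen after their values were seen. Members and lists were chosen with earlier results of these data known. Promoter and protein sequences were not used here.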

Additional observations from a re-analysis of the deposited data

How the results depend on the processing

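The counts depended on the fit, while most of these settings leave the log ratios themselves as they are. Without unnamed probes below -1.2, or without pairs of values shared by 20 or more probes, 6 members rose and 3 fell, the same 9 genes. With centring 10 rose, with centring and scaling, the fit on probes with 1 gene, or without probes at 0 on both arrays 11 rose, and with the robust prior 9; in these settings 4 fell and the 9 genes remained. The calls of all probes with 1 gene grew too, to 15.3%, 16.3%, 17.2%, 15.2% and 11.9% that rose and 15.4%, 15.9%, 17.4%, 16.1% and 13.8% that fell, in the order of these settings. A minimum fold of 1.2 left 5 that rose and 1 that fell, without AT3G21770, AT5G40150 and PRX72 (3.45% and 4.75% of all probes with 1 gene). The ordinary test without a prior and limma at an adjusted p of 0.01 called 0 members in either direction. They called 0% of all probes with 1 gene as well, so these zeros are not particular to the peroxidases. At an unadjusted p under 0.05 were 8 and 16 of the 45 members in these tests, beside 4329 and 9718 of all 22575 probes. Of the 9 listed pathway genes, counted under these settings after the data were seen, 0 rose or fell in the last 2 settings (2 at an unadjusted p under 0.05), and 0 fell with the minimum fold. At 1.5-fold on both arrays 12 members lay higher and 3 lower, against 7.5% and 8.54% of all probes with 1 gene. With values read as log2 1 lay higher, against 0.0643%. At 3-fold 3 lay higher, but the share of all probes was not counted there, so this count does not set the members apart. On single arrays 7 (plant 36) and 12 (plant 44) lay 2-fold higher, against 3.93% and 4.46% of all probes with 1 gene. On single arrays 0 to 1 lay 2-fold lower, with no share of all probes counted, and the median was 0.044 to 0.049. None of the 17 members named by rule changed sign under the alternatives run. Most of these alternatives do not alter a log ratio, and centring moved it little (PRX72 from -0.215 to -0.212). A sign could therefore hardly turn except on single arrays. For the shifts in the counts the cause was not tested. Tests without 1 plant were not run, as they leave no residual degrees of freedom. Each ratio already pairs an over-expressor with wild type on the same array, and no further pairing was modelled. Signal over background is unknown.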

Other observations

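By chromosome, the measured peroxidases of chromosome 4 had the highest median, 0.25 over 9 genes, of which 1 rose, and those of chromosome 5 the lowest, 0.011 over 17 genes, of which 2 rose and 2 fell. Chromosome 2 had a median of 0.12 over 8 genes, with 2 that rose, and chromosome 3 of 0.13 over 5 genes, with 1 that rose. On chromosome 1, where 6 of 12 listed genes were measured, the median was 0.012 and 1 gene fell. Over all probes with 1 gene, on any chromosome, 9.99% rose and 12.4% fell, and the median was 0.001. Each chromosome held few members, and the differences between chromosomes were not tested.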
